A study of Mus musculus with 11 samples.

Results

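*S1pr1* and *Lpar1* encode receptors for lysophospholipids, small signalling lipids that circulate in blood and lymph. They were chosen by name, *S1pr1* in HaCa4 cells and *Lpar1* in lymphatic endothelial cells (LECs), and are 2 of the 458 distinct genes analysed here. A total of 290 genes were listed for HaCa4 and 191 for LECs, with 23 listed for both. *S1pr1* was listed only for HaCa4 and *Lpar1* only for LECs, so the level of each receptor in the other cell line was not analysed here. The data come from bulk RNA sequencing of 11 libraries, all from these 2 mouse cell lines.

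HaCa4 cells come from a squamous cell carcinoma of mouse skin. The LECs (imLEC in the labels) derive from a mouse that carries a heat-sensitive SV40 large T antigen under an interferon-inducible promoter, and are therefore conditionally immortal. HaCa4 control (n = 2) and LEC control (n = 3) were grown as single cultures. HaCa4-sorted (n = 3) and LEC-sorted (n = 3) were separated by FACS after 24 h of co-culture, with the dye CFSE marking the cancer cells and an antibody to CD31, the product of *Pecam1*, marking the LECs. The single cultures are not described as sorted, so the effects of co-culture and of sorting cannot be told apart. The labels do not say whether replicates were separate cultures, so the p-values measure the spread between these libraries, which may be technical.

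Sphingosine 1-phosphate (S1P) and lysophosphatidic acid (LPA) act on families of related G protein-coupled receptors. The product of *S1pr1* binds S1P, signals through the inhibitory G protein Gi to the GTPase Rac, and is known for tightening endothelial junctions and for guiding lymphocytes out of lymphoid tissue into lymph. The product of *Lpar1* binds LPA and couples to Gi, Gq, and G12/13, which act on cell shape, contraction, and migration. S1P is exported from endothelial cells by the transporter encoded by *Spns2*, whereas LPA is made outside cells by autotaxin (*Enpp2*) and removed by lipid phosphatases such as the product of *Plpp3*.

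*S1pr1* lies on chromosome 3 from 115710433 to 115715055 of GRCm38.p6, on the minus strand. It has 2 exons, and its coding sequence of 1146 bases is held in 1 of them. *Lpar1* lies on chromosome 4 from 58435252 to 58554027, also on the minus strand, with 5 transcripts in the GENCODE M21 basic set that have 3 to 4 exons. Its longest coding sequence has 1092 bases in 3 exons and is shared by 4 of the 5 transcripts. The deposited values are per gene and do not separate these transcripts.

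Both receptors belong to the same family, and they are known to differ at a residue of the third transmembrane helix that helps set the preference for S1P or LPA. A glutamate is encoded there in *S1pr1* and a glutamine in *Lpar1*. The coding stretches around that codon are shown to place the genes side by side, with the codon in capitals. They were read 5′ to 3′ on the coding strand from GENCODE M21 transcripts, at chr3:115712551-115712613 and chr4:58486865-58486927 of GRCm38.
S1pr1: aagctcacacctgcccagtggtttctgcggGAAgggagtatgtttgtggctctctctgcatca
Lpar1: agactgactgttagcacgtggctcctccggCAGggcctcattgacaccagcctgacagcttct
The capitals mark codon 121 of *S1pr1* and codon 125 of *Lpar1*, counted from the start codon. Of the 63 bases, 29 (46.0%) were identical when the stretches were set against each other without gaps.

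The values are TPM, a transcript level scaled by the authors for transcript length and library size. TPM keeps no record of read numbers, so depth is unknown and precision rests on the spread between libraries. The listed genes made up between 1.84% and 3.85% of the total TPM of a library. Sorted and control libraries of each line were compared by limma on log2(TPM + 1), with p-values adjusted over the listed genes of that line. A gene was said to pass when its log2 fold change was 0.5 or more in either direction with an adjusted p up to 0.05 on this scale. The study applied the same cut-offs to results from DESeq2, so passing or not passing here is not the call of the study. Because the listed genes are a selection from these same samples, an adjusted p gives no independent evidence that a listed gene changed.

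The labelled cell types were checked against markers among the listed genes. In the HaCa4 controls the epithelial keratin gene *Krt8* had 283.80 and 380.41 TPM, and the endothelial cadherin gene *Cdh5* was listed at 0 in both. Of the 26 endothelial markers listed for HaCa4, 23 were below 1 TPM in both controls. The exceptions were *Nr2f2* (38.9 and 35.56 TPM), *Eng* (2.78 and 2.51 TPM), and *Selp*, at levels between those. Endothelial markers were thus not all absent from HaCa4 cells grown alone. In the LEC controls *Krt8* was listed at 0 in all 3 libraries, and the VEGF receptor gene *Kdr* had between 136.83 and 171.50 TPM. *Pecam1*, *Cdh5*, and the lymphatic genes *Prox1* and *Lyve1* were not analysed here for LECs.

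*S1pr1* was close to undetected in HaCa4 cells grown alone and was present at very uneven levels after co-culture. Its level was 0.11 and 0.04 TPM in HaCa4 control replicates 1 and 2, and 0.79, 16.58, and 7.75 TPM in HaCa4-sorted replicates 1 to 3. Every sorted library lay above both controls, and the sorted libraries themselves spanned a ratio of 20.99 between replicates 2 and 1. The control mean was 0.075 ± 0.050 TPM (SD, n = 2) and the sorted mean 8.37 ± 7.91 TPM (SD, n = 3), an SD almost equal to the mean. The log2 fold change was 2.60 (SE 0.95, 95% interval 0.29 to 4.90), the ninth highest of the 290 listed genes in size of rise. It did not pass with limma (unadjusted p = 0.0328, adjusted p = 0.0627). An exact permutation test, made two-sided by doubling the smaller tail, gave p = 0.2. That is the smallest value this form of the test allows for 2 libraries against 3.

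The standard error of *S1pr1* ranked 5 of 290 from the top, against a median of 0.36 over the listed genes. Of those genes, 30% passed in either direction, 15.9% as higher and 14.1% as lower. Control and sorted libraries did not overlap, with the sorted ones higher, in 63.1% of the listed genes, and with the sorted ones lower in 33.4%. In counts, 46 genes passed as higher and 41 as lower. After scaling to a common median 50 and 95 did, with the median log2 fold change down from 0.74 to 0.25. That common median was taken over the listed genes alone, and 192 of the 290 had a higher mean in HaCa4-sorted. The scaling thus takes out part of a rise shared by the listed genes. A call gained, lost, or reversed under it, here or below, is no independent check. Leaving out 1 library removed most calls in this line in 3 of 5 fits. With limma, 3 genes passed in each direction without HaCa4 control replicate 1, and 0 passed without control replicate 2 or without HaCa4-sorted replicate 3, where 70 and 126 had an unadjusted p under 0.05. Whether *S1pr1* passed varied with several processing choices. Without HaCa4-sorted replicate 1 the log2 fold change was 3.53 (limma adjusted p = 0.00888), and with a pseudocount of 0.1 in place of 1 it was 4.83 (limma adjusted p = 0.0225). It also passed after scaling to a common median (2.30) and with library weights (2.86), and it did not pass with a pseudocount of 5 (1.20).

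**Figure D1:**
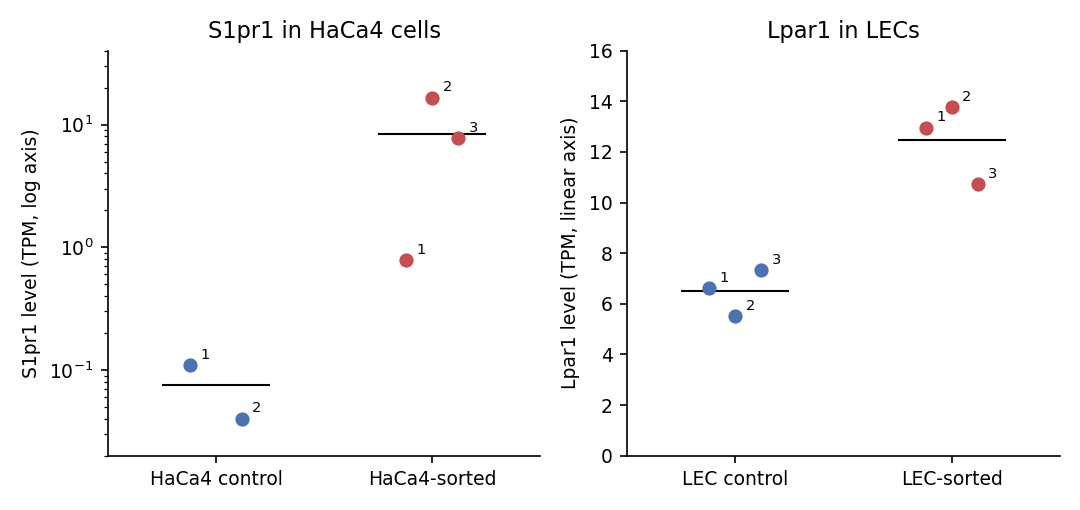
Levels of *S1pr1* in HaCa4 libraries (left, TPM on a log axis) and of *Lpar1* in LEC libraries (right, TPM on a linear axis), with each point a library, its replicate number beside it, and the bar the group mean. *S1pr1* ran from 0.79 to 16.58 TPM among the sorted libraries, whereas *Lpar1* ran from 10.72 to 13.78 TPM, and the groups did not overlap in either panel.

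The other genes of the pathway were taken from a list of 37 genes for lysophospholipid receptors, transporters, and enzymes. Apart from *S1pr1*, a single member of it was listed for HaCa4, and this was *Spns2*, the S1P exporter (chromosome 11 from 72451638 to 72489976). *Spns2* had 0.04 and 0.12 TPM in the controls, against 0.23, 4.66, and 1.73 TPM in HaCa4-sorted replicates 1 to 3. As with *S1pr1*, the groups did not overlap and replicate 2 was the highest. The log2 fold change of *Spns2* was 1.31 (SE 0.66, 95% interval -0.30 to 2.91), which did not pass (limma adjusted p = 0.118). The level of *Spns2* was 0.29, 0.28, and 0.22 times that of *S1pr1* in the sorted libraries, while in the controls this ratio was 0.36 and 3.0.

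*P2ry10b* also belongs to the lipid receptor field and was noted after its values had been seen. It is closely related to *P2ry10*, whose product responds to lysophosphatidylserine, and reads could be divided between the copies. *P2ry10b* had 2.52 and 1.77 TPM in the controls, against 7.67, 4.37, and 5.45 TPM in HaCa4-sorted replicates 1 to 3, so that here replicate 1 was the highest. Its log2 fold change was 1.10 (SE 0.40, limma adjusted p = 0.0625).

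The uneven levels of *S1pr1* were shared by endothelial markers. A list of 58 endothelial genes, which did not hold *S1pr1*, had 26 members listed for HaCa4. The mean of each of the 26 was higher after sorting, as was that of 192 of all 290 listed genes. Of the 26, 23 were below 1 TPM in both HaCa4 controls, and genes so low had little room to be listed as lower. The listed genes were selected on these samples, so this shared direction may follow largely from that selection. Of the 26 markers, 3 passed as higher (11.5%, against 15.9% of all listed genes). These were *Emcn* (endomucin), *Plvap* (a component of endothelial vesicle diaphragms), and *Selp* (P-selectin), of which *Selp* did not pass after scaling to a common median (0.62). The median log2 fold change of the 26 markers was 1.39, against 0.74 over all 290 listed genes.

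In single culture 23 of the 26 markers were under 1 TPM in both HaCa4 controls. Of these, 9 were listed at 0 in both, namely *Adgrl4*, *Cdh5*, *Emcn*, *Erg*, *Fli1*, *Flt4*, *Icam2*, *Myct1*, and *Robo4*. The summed level of the 26 markers was 51.58 and 42.98 TPM in the controls, against 92.15, 356.95, and 190.79 TPM in HaCa4-sorted replicates 1 to 3. *Nr2f2* and *Selp* made up most of the sum in the controls and in replicate 1. Without these 2 markers, left out after their values were seen, the sums were 4.68 and 3.42 TPM in the controls, against 20.32, 290.69, and 127.56 TPM after sorting. Both sets of sums were lowest in the controls and ordered in the sorted libraries as *S1pr1* was, with replicate 1 lowest and replicate 2 highest. Of the 26 markers, 24 (92.3%) had this order, compared with 41.7% of all 290 listed genes and 53.6% of the 192 with a higher mean in HaCa4-sorted. The exceptions were *Selp* and *Nr2f2*, which were already at 4 TPM or more in the HaCa4 controls. Because these genes come from the same 3 libraries, the shared order is a description and was not tested.

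*Pecam1*, whose product was used to sort the LECs, had 0.14 and 0.04 TPM in the HaCa4 controls and 1.29, 24.25, and 9.38 TPM in HaCa4-sorted replicates 1 to 3. The level of *S1pr1* was 0.61, 0.68, and 0.83 times that of *Pecam1* in the sorted libraries, although each gene varied more than 18 times between them (ratios of 20.99 and 18.80 between replicates 2 and 1). Relative to *Cdh5* it was 0.71, 0.56, and 0.56 times. These markers were 2 of 26, and the others differed from them. For each marker, the highest ratio of *S1pr1* to it in the sorted libraries was divided by the lowest, which gave between 1.07 (*Erg*) and 31.06 (*Selp*), with a median of 2.06 and values of at most 2 for 13 of the 26. *Eng* (endoglin), for example, gave ratios of 0.27, 0.87, and 0.75. *S1pr1* was 0.86%, 4.64%, and 4.06% of the summed level of all 26 markers in replicates 1 to 3, and 3.89%, 5.70%, and 6.08% of the sum without *Selp* and *Nr2f2*.

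*Kdr* is an endothelial marker that was listed for both lines and was near 0 in HaCa4 control. In HaCa4-sorted replicates 1 to 3 its level was 0.15%, 1.85%, and 1.15% of the mean in LEC-sorted, which was 100.9 TPM. *Selp*, the other endothelial marker listed for both lines, stood in another order, at 6.13%, 4.14%, and 4.10% of its LEC-sorted mean of 350.7 TPM, and it had 2.28% and 1.14% in the HaCa4 controls. *S1pr1* cannot be expressed in this way, as its level in LECs was not analysed here. In bulk RNA, a few cells with much of a transcript and many cells with little of it cannot be told apart. The part of the endothelial markers in the level of *S1pr1* was not tested.

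**Figure D2:**
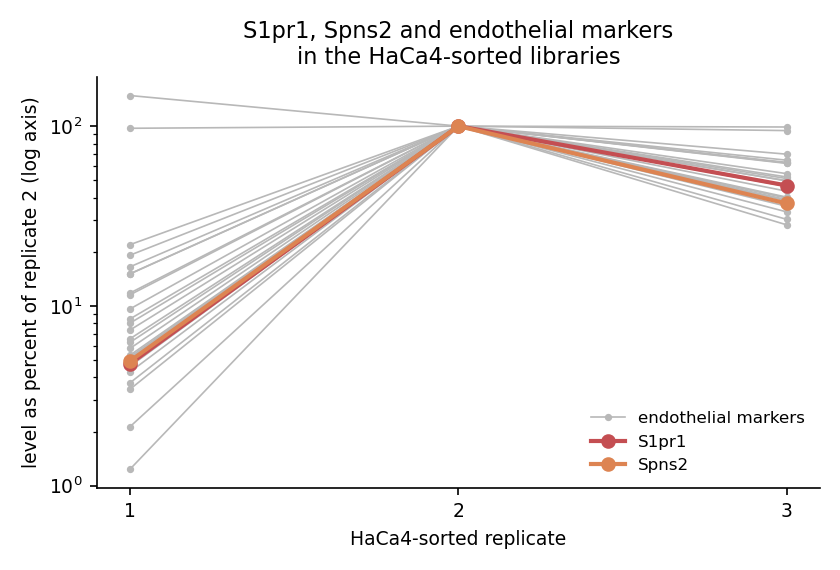
Levels in HaCa4-sorted replicates 1, 2, and 3 as a percent of replicate 2 (log axis) for *S1pr1*, *Spns2*, and the 26 listed endothelial markers, with lines joining the values of a gene. *S1pr1* stood at 4.77% in replicate 1 and 46.7% in replicate 3, within the range of the markers, and *Selp* and *Nr2f2* are the grey lines near 100% at replicate 1.

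By the root mean square difference of their changes in log2(TPM + 1) over the 5 HaCa4 libraries, the genes whose pattern was most like that of *S1pr1* were *Lyve1*, *Nid1*, *Pecam1*, *Gvin1*, and *Clca3a1*. *Lyve1*, which encodes a hyaluronan receptor of lymphatic endothelium, differed least, by 0.21. It had 0.00 and 0.14 TPM in the controls, against 0.97, 16.72, and 5.57 TPM in the sorted libraries. *Nid1*, which encodes the basement membrane protein nidogen, differed by 0.23, and the other genes by between 0.29 and 0.31. *Lyve1* and *Pecam1* belong to the endothelial list, as do 26 of all 290 listed HaCa4 genes. All 5 genes were picked for their likeness to *S1pr1*, so a shared pattern follows in part from that choice.

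Other G protein-coupled receptors in HaCa4 cells lay both above and below their controls. From a list of 92 such receptors, 6 were listed for HaCa4, and 1 passed, as higher, a share close to the 15.9% of all listed HaCa4 genes. This was *F2rl1*, the protease-activated receptor that trypsin-like enzymes switch on, with 33.60 and 38.38 TPM in the controls, against 68.65, 46.99, and 68.97 TPM in the sorted replicates. Its log2 fold change was 0.74 (SE 0.20, limma adjusted p = 0.0405), which turned to -0.11 after scaling to a common median and did not pass there. *Ednra* (an endothelin receptor) and *Hcar2* (a receptor for hydroxycarboxylic acids) were lower in every sorted library, with log2 fold changes of -0.69 and -0.66 that did not pass, and of -1.40 and -1.48 that passed after that scaling. The adhesion receptors *Adgrg1*, *Adgrl4*, and *Adgrg3* had log2 fold changes of 0.89, 0.53, and 0.65 and did not pass. *Adgrl4* and *Adgrg3* were listed at 0 in both controls and stayed under 1.5 TPM in the sorted libraries.

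Genes that lysophospholipids and other ligands of G12/13-coupled receptors are known to induce were taken from a list of 21. In HaCa4 cells *Areg*, which encodes the growth factor amphiregulin, fell by 0.57 on the log2 scale (SE 0.13, limma adjusted p = 0.0366). *Cyr61* and *Lif* had log2 fold changes of 0.74 and -0.71 and did not pass (limma adjusted p = 0.0543 and 0.0629). After scaling to a common median *Areg* had -1.43 and passed, *Cyr61* turned to -0.13, and *Lif* passed at -1.54. The 40 genes listed for G protein coupling and receptor trafficking had 0 members among the HaCa4 genes. That list was not complete. *Gng11* (a G protein gamma subunit), *Adcy4* (an adenylyl cyclase), and *Prex2* (a Rac activator) lie outside it and were listed for HaCa4. Their log2 fold changes of 1.98, 1.30, and 0.24 did not pass (limma adjusted p = 0.0794, 0.115, and 0.421).

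**Figure D3:**
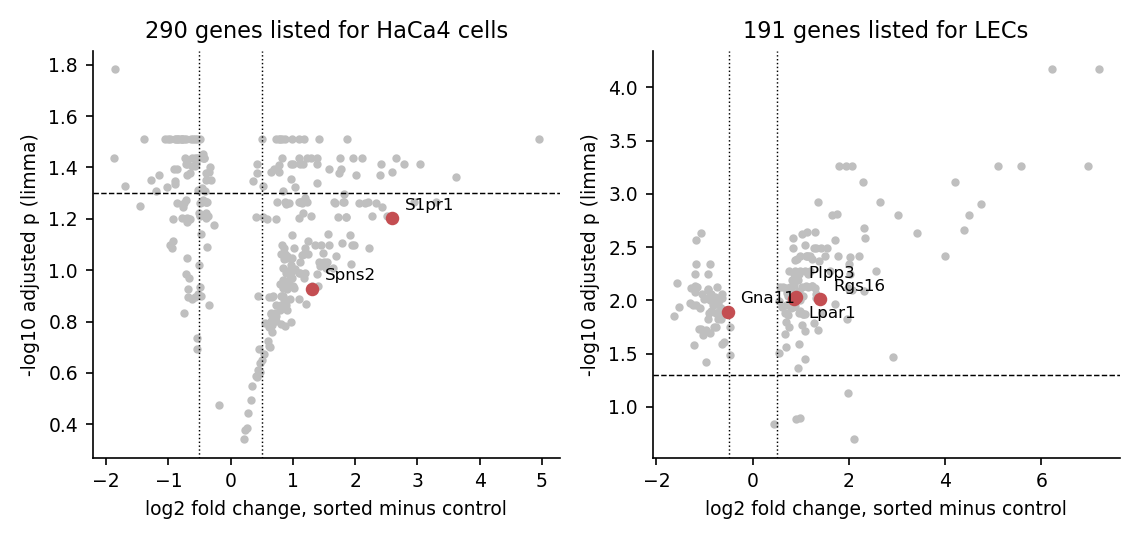
Log2 fold change on log2(TPM + 1) (sorted minus control) against -log10 of the adjusted p from limma for the 290 HaCa4 genes (left) and the 191 LEC genes (right), with a point for each gene, a dashed line at an adjusted p of 0.05, and dotted lines at log2 fold changes of 0.5 and -0.5. *S1pr1* lies far to the right and just under the dashed line at an adjusted p of 0.0627, while *Lpar1* lies above it amid most of the listed LEC genes.

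*Lpar1* was expressed in LECs grown alone, and its level was 1.92 times as high after co-culture, with little spread. It had 6.62, 5.52, and 7.34 TPM in LEC control replicates 1 to 3, and 12.96, 13.78, and 10.72 TPM in LEC-sorted replicates 1 to 3. The lowest sorted library exceeded the highest control, so the groups did not overlap. It rose from a mean of 6.49 ± 0.92 TPM (SD, n = 3) to one of 12.5 ± 1.58 TPM (SD, n = 3). The log2 fold change was 0.85 (SE 0.22, 95% interval 0.33 to 1.36), which passed (limma adjusted p = 0.00969). An exact two-sided permutation test gave p = 0.1, the smallest value that 3 libraries against 3 allow.

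The study called 191 genes deregulated in co-cultured LECs, 127 as upregulated and 64 as downregulated. The 191 genes listed here split alike by mean, so a high share passing is built into the list. Most listed LEC genes passed, 96.3% in either direction, 63.9% as higher and 32.5% as lower. In counts these were 122 and 62 genes, against 46 and 64 after scaling to a common median. Libraries did not overlap, with the sorted ones higher, in 63.9% of them as well, and with the sorted ones lower in 33%. The change of *Lpar1* ranked 98 of 191 from the highest rise, and the median log2 fold change of all listed LEC genes was 0.87. After that scaling the median was 0.27, and the value of *Lpar1* was 0.28 and did not pass (limma adjusted p = 0.294). The scaling used the median of the listed genes, of which most had a higher mean in LEC-sorted. It therefore lowers such rises by construction. The call for *Lpar1* held in each of the 6 fits that left out 1 library.

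*Plpp3* (chromosome 4 from 105157347 to 105232767) was the other member of the lysophospholipid list among the LEC genes, and it too passed as higher. It encodes a membrane phosphatase that dephosphorylates LPA and S1P outside the cell. *Plpp3* had 41.37, 56.30, and 43.51 TPM in the LEC controls, against 76.05, 116.79, and 75.16 TPM in the sorted replicates. Its log2 fold change was 0.89 (SE 0.23, limma adjusted p = 0.0093). The level of *Plpp3* was between 5.93 and 10.20 times that of *Lpar1* in the controls and between 5.87 and 8.48 times in the sorted libraries, and these ranges overlapped. After scaling to a common median its log2 fold change was 0.27 and did not pass.

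Among the 40 coupling genes, *Rgs16* and *Gna11* were listed for LECs, and they moved in opposite directions. *Rgs16* encodes a protein that shortens signalling by Gi and Gq. It had 282.16, 106.48, and 161.60 TPM in the controls, against 578.96, 470.33, and 338.18 TPM in the sorted replicates, and its log2 fold change was 1.41 (SE 0.36, limma adjusted p = 0.00969). *Gna11* encodes an alpha subunit of the Gq class. It fell from a mean of 105.0 ± 5.29 TPM (SD, n = 3) to one of 73.6 ± 7.71 TPM (SD, n = 3), by 0.51 on the log2 scale (SE 0.15, limma adjusted p = 0.0128), close to the threshold of 0.5. Without LEC control replicate 1, LEC-sorted replicate 1, or LEC-sorted replicate 2 it lay at -0.47 each and no longer passed. After the same scaling, the change of *Rgs16* was 0.78 and did not pass, and that of *Gna11* was -1.13 and passed.

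**Figure D4:**
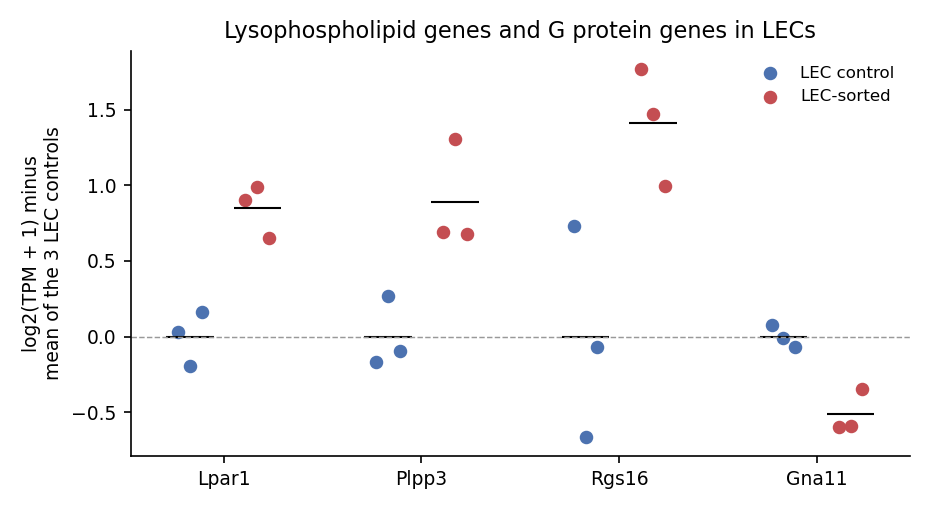
Change in *Lpar1*, *Plpp3*, *Rgs16*, and *Gna11* in the LEC libraries, as log2(TPM + 1) minus the mean of the 3 LEC controls, with a point for each library and bars at the group means. All 3 points of LEC-sorted exceeded the controls for *Lpar1*, *Plpp3*, and *Rgs16* and lay below them for *Gna11*, with mean changes of 0.85, 0.89, 1.41, and -0.51.

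Of the 21 genes known to be induced through such receptors, 6 were listed for LECs, and all 6 passed, 5 as higher and 1 as lower, where 96.3% of all listed LEC genes passed. The inflammatory genes *Cxcl1*, *Cxcl2*, *Ccl2*, *Il6*, and *Lif* had log2 fold changes of 6.21, 4.49, 1.55, 1.60, and 0.97, and after scaling to a common median only *Lif* among them did not pass (0.39). *Fosb*, which encodes a transcription factor of the AP-1 family, was the lower gene, at -1.64 on the log2 scale. These genes respond to many other stimuli, and the study selected them on these samples. *Lif* was the member of the list that was present in both lines. Of the 92 receptors on the list of G protein-coupled receptors, 0 were listed for LECs. That list was not complete. *Gpr84* and *Adgrg2*, receptors of this class outside it, were listed for LECs and passed as higher, as did 63.9% of all listed LEC genes. Their log2 fold changes were 2.31 and 1.05 (limma adjusted p = 0.00211 and 0.0134).

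The genes most like *Lpar1* over the 6 LEC libraries, by the same measure, were *Enah*, *Slc12a2*, *Adamts9*, *Lrig1*, and *Ivns1abp*, which differed by between 0.09 and 0.11. *Enah*, which encodes a regulator of actin filaments at cell edges, had 11.32, 8.02, and 10.19 TPM in the controls, against 19.48, 20.98, and 14.95 TPM in the sorted replicates. *Slc12a2*, which encodes an ion cotransporter, was at a higher level, with 48.63, 44.09, and 46.85 TPM in the controls, against 92.18, 99.65, and 69.65 TPM in the sorted replicates. In *Lpar1*, *Enah*, and *Slc12a2*, replicate 2 was the lowest control and also the highest sorted library. *Adamts9* and *Lrig1* were instead highest in LEC-sorted replicate 1, and *Ivns1abp* was lowest in LEC control replicate 1. All of these genes were picked for their likeness to *Lpar1*, so a shared order follows in part from that choice.

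Keratinocyte markers were few among the LEC genes, by a list that was not complete. *Sprr2b* and *Padi3*, genes of skin epithelium outside that list, were listed for LECs. Their means were 7.62 and 0.05 TPM in LEC control, against 35.1 and 1.70 TPM in LEC-sorted. *Sprr2b* passed as higher (limma adjusted p = 0.0151) and *Padi3* did not pass. Of 43 keratinocyte genes, only *Krt8* was listed, at 0 in every LEC control and at 0.19, 2.19, and 0.89 TPM in LEC-sorted replicates 1 to 3 (limma adjusted p = 0.043). Its call was lost in 5 of the 6 fits that left out 1 library, with log2 fold changes between 0.58 and 0.96. The sorted libraries stood in the order 1, 3, 2 from the lowest for *Krt8* and in the order 3, 1, 2 for *Lpar1*. In HaCa4-sorted, where *Krt8* had between 205.34 and 238.24 TPM, *Lpar1* was not analysed here, and the part of *Krt8*-expressing cells in the level of *Lpar1* was not tested. Of the 58 endothelial genes, 4 were listed for LECs, and their summed level was between 285.56 and 448.33 TPM in the controls and between 421.70 and 809.31 TPM in LEC-sorted. *Selp* and *Sele* (E-selectin) passed as higher, and *Kdr* and *Clec14a* passed as lower. *Kdr* did not pass without LEC control replicate 2 (-0.499), nor *Clec14a* without LEC-sorted replicate 1 or 2 (-0.97 and -1.29).

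Keratinocyte genes in HaCa4 cells numbered 4 of the 43, with a summed level of 320.86 and 409.94 TPM in the controls and of 246.56, 233.48, and 275.70 TPM in the sorted libraries. *Krt19* passed as higher, *Krt8* and *Krt6b* passed as lower, and *Dsg3* had a log2 fold change of -0.69 that did not pass. After scaling to a common median *Krt19* no longer passed (0.16) and *Dsg3* did (-1.48).

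In mean level, the receptors were of the same order after co-culture, at 8.37 TPM for *S1pr1* in HaCa4-sorted and 12.5 TPM for *Lpar1* in LEC-sorted. The mean of *S1pr1* covers libraries from 0.79 to 16.58 TPM, whereas those of *Lpar1* ran from 10.72 to 13.78 TPM. The ranges of the sorted libraries overlapped. In the controls they lay far apart, at most 0.11 TPM for *S1pr1* in HaCa4 and at least 5.52 TPM for *Lpar1* in LECs. The difference between their changes was not tested, since the genes were listed for different cell lines.

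**Figure D5:**
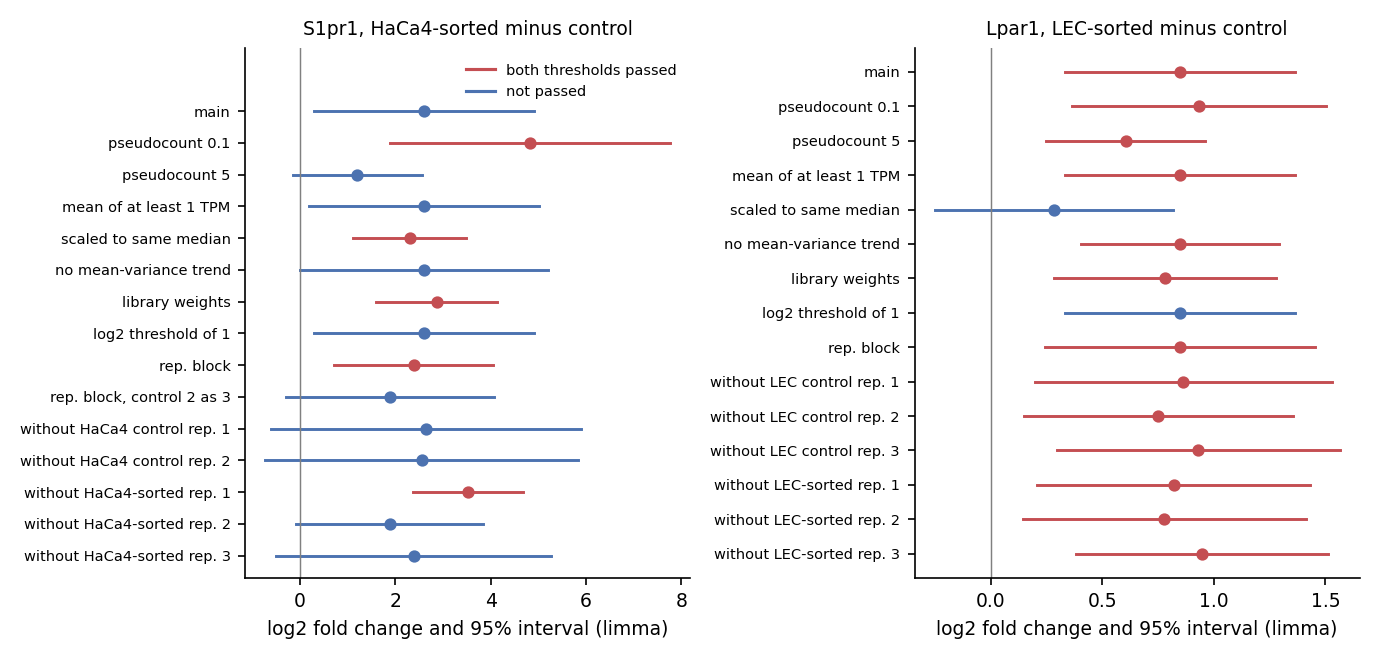
Log2 fold changes (points) with 95% intervals from limma (lines) for *S1pr1* in HaCa4 cells (left) and *Lpar1* in LECs (right) under each way of processing the values, with red where both thresholds were passed. The value of *S1pr1* was positive throughout, from 1.20 with a pseudocount of 5 to 4.83 with a pseudocount of 0.1, and that of *Lpar1* lay between 0.28 and 0.95.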

How the data were processed

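RNA was extracted with an RNeasy kit, and libraries were sequenced on a BGISEQ platform. Per the labels and the methods of the study, reads were filtered by the authors with SOAPnuke and aligned with HISAT (HISAT2 2.0.4 in the submitters' processing notes) to GRCm38.p6, and DESeq2 was used for differential expression. The authors deposited TPM per gene and library, without pooling, for 290 HaCa4 and 191 LEC genes. The tool that gave TPM is not given in the sources used here. The second HaCa4 control, replicate 2 by its label, carries the number 3 in its column name.

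Log2(TPM + 1) values of sorted and control libraries were compared within each line by limma 3.58.1 (R 4.3.3) with eBayes and a trend of variance on mean, and low genes have their changes understated on this scale. P-values are two-sided, with Benjamini-Hochberg adjustment across the genes listed for the line. The step was also run on data simulated with genes independent of each other and effects of known size. The listed genes were instead selected on these samples, so that run does not measure the error rate of the calls here. In no pair of replicates did more than 5 genes have an identical value above 0. No depth is recorded in TPM, so no counting error can be given.

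The members and lists were chosen with earlier results of these data known. Named were the receptors, every listed gene of the lysophospholipid, coupling, induced-gene, and receptor lists apart from an induced gene that is not reported here, *Pecam1* and leading cell type markers, and the 5 genes most like each receptor. *P2ry10b*, *Gng11*, *Adcy4*, *Prex2*, *Gpr84*, *Adgrg2*, *Sprr2b*, *Padi3*, and further markers with *Kdr*, *Eng*, and *Erg* were named after their values were seen. Alternatives were pseudocounts of 0.1 and 5, filters at a mean of 1 or 10 TPM, scaling to a common median, no trend in limma, library weights, a log2 threshold of 1, a replicate block, and leaving out each library. Numbering the second control 3 in that block was added after seeing the data. Scaling to a common median used the listed genes of each library alone. Coordinates came from RefSeq for GRCm38.p6 and sequences from GENCODE M21. Python 3.11.15, pandas 2.3.3, scipy 1.17.1, Biopython 1.88, and matplotlib 3.10.9 were used.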

Additional observations from a re-analysis of the deposited data

How the results depend on the processing

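The log2 fold change of *S1pr1* was positive under every alternative, and whether it passed varied. It passed with a pseudocount of 0.1 (4.83), scaling to the same median (2.30), library weights (2.86, a fit that stopped before convergence for HaCa4), and a replicate block (2.38, adjusted p = 0.019 from limma). It did not pass with the other settings, among them a pseudocount of 5 (1.20) and the block with the second control numbered 3 (1.88). Leaving out each library gave values between 1.88 and 3.53, and *S1pr1* passed only without HaCa4-sorted replicate 1. Where a HaCa4 control was left out, the lone control was assumed to vary like the sorted group. *Lpar1* was positive throughout and did not pass with scaling to the same median (0.28) or a log2 threshold of 1 (0.85), and without each library it lay between 0.75 and 0.95. Under the replicate block *Lpar1* had 0.85 and still passed. The block also brought *Cyr61*, *Lif*, and *Pecam1* past the thresholds in HaCa4 and changed no call of a LEC gene followed across settings. A filter at a mean of 10 TPM removed both receptors. *F2rl1* (-0.11) and *Cyr61* (-0.13) turned negative in HaCa4 cells with scaling to the same median. Among the genes followed across settings, no other whose log2 fold change or call is given above changed direction. *Gng11*, *Adcy4*, *Prex2*, *Gpr84*, *Adgrg2*, *Sprr2b*, and *Padi3* were not followed. The HaCa4 genes that passed, 46 higher and 41 lower, numbered 120 and 57 with a pseudocount of 0.1, 11 and 22 with a pseudocount of 5, 50 and 95 with scaling, 170 and 64 with library weights, 29 and 10 with a log2 threshold of 1, 66 and 49 with a replicate block, and 14 and 8 with the second control numbered 3. In LECs 122 and 62 became 46 and 64 with scaling and 74 and 21 with a log2 threshold of 1.

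The 3 endothelial markers that passed in HaCa4 became 14 with a pseudocount of 0.1, 0 with a pseudocount of 5, 7 of 18 with a filter at 1 TPM, 12 with scaling, 0 without the trend, 24 with library weights, 7 with a replicate block, and 0 with the block that numbered the second control 3. Leaving out each library gave between 0 and 25, with 25 reached without HaCa4-sorted replicate 1 and 0 without either control or without HaCa4-sorted replicate 3. All genes passing without the trend numbered 0 in HaCa4, where 161 had an unadjusted p under 0.05 with limma. In LECs the 4 endothelial markers that passed fell to 3 with a log2 threshold of 1 and between 3 and 4 on leaving out each library.

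Whether replicate numbers mark pairs was not settled. Deviations from the group means correlated at 0.23, 0.07, and -0.02 across genes for LEC replicates 1 to 3. For LEC libraries of unlike number the values lay between -0.18 and 0.15. The 2 HaCa4 pairs had 0.23 and 0.28, against values between -0.28 and 0.09 for unlike numbers. With 2 HaCa4 controls their deviations mirror each other, so the HaCa4 values cannot decide the question. The causes of these shifts were not tested, and the unknown depth limits what can be said of *S1pr1* in HaCa4 control.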
